A study of Mus musculus with 74 samples.

Results

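Binding sites of 67 KRAB zinc finger proteins (KRAB-ZFPs) of the mouse were examined at 37 genes of the pluripotency network, out of 22367 protein-coding genes of the mm9 annotation (gencode vM1). The genes were listed by name, as core and ancillary pluripotency factors with their signalling and chromatin partners, and no value of a peak was a criterion, although earlier results of these data were known when the list was made. A peak was given to a gene when the midpoint of its 200 bp window lay in the gene body or within 50 kb on either side. All 37 genes were found, 36 by their symbol and Tfcp2l1 by its older symbol Tcfcp2l1. Of the 53011 peaks used, 151 lay at these genes. Because 7 of them lay in the windows of a pair of neighbouring genes, they made 158 gene and peak pairs. The paper discarded 7 of its 68 KRAB-ZFP datasets, which gave no binding motif or target retrotransposon and had low signal to noise on inspection. No dataset was left out here for that reason, so some of the peaks below may come from such datasets.

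In the study, each KRAB-ZFP was overexpressed with an epitope tag, and its binding sites were mapped by chromatin immunoprecipitation and sequencing (ChIP-seq). F9 EC cells, a mouse embryonal carcinoma line, carried 58 of them. The FLAG tag was placed on the N-terminus of 18, with input and a FLAG ChIP as controls, and 30 had an HA tag on either end, with input and an HA ChIP as controls. Another 10 had HA on the C-terminus, were aligned with Bowtie2 and had the ChIP labelled Gm14296_control as their control. B6 ES cells, mouse embryonic stem cells, carried the other 9 KRAB-ZFPs with a C-terminal HA tag, and those peaks were called against input alone. Transgenes were integrated stably with Sleeping Beauty or lentiviral vectors and puromycin-resistant clones were pooled, so the tagged protein was present beside any endogenous copy, at a level not analysed here. Each KRAB-ZFP had 1 sample, so the values below have no replicate error, and no test between conditions was possible. Cell line, antibody, aligner and control change together between these setups and cannot be told apart. Peak positions carry no expression, so the labelled cell types could not be checked against marker genes.

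The pluripotency network is a set of transcription factors, with OCT4 (encoded by Pou5f1), SOX2 and NANOG at its core, that activate one another and keep embryonic stem cells able to form every tissue of the embryo. LIF signalling through STAT3 feeds naive factors such as KLF4 and TFCP2L1, while FGF and NODAL signals accompany the exit from the naive state. KRAB-ZFPs bind DNA through an array of zinc fingers and recruit the corepressor KAP1 through the KRAB domain, for the most part at retrotransposons, many of which are transcribed in the same early embryonic cells.

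A KRAB-ZFP had 52 to 5685 peaks (median 277) and 1681 to 540220 tags summed over them. Since these sums leave out the reads outside peaks, library depth is unknown, and a missing peak is no evidence of absent binding. The 151 peaks at pluripotency genes held 7 to 334 tags with a median of 49. Their fold enrichment over the local background, as MACS gave it, ran from 8.17 to 106.44 with a median of 22.16, beside a median of 23.01 over all peaks. The deposited false discovery rate was over 5% in 20 of the 151 peaks (13.2%), against 13.8% of all peaks. It was 100% in 2 of them, a Gm14391 peak at Dppa5a and a Gm14326 peak at Mycn.

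At least 1 KRAB-ZFP peak lay in or within 50 kb of 36 of the 37 genes, all but Tcl1. This was 97.3% of the genes (95% Wilson interval 86.2% to 99.5%), where 90.9% of all protein-coding genes and 90.8% of those of similar length (a gene body within a factor of 1.5) had a peak. A KRAB-ZFP peak within 50 kb was therefore the usual state of a gene in these data. With 10 kb on either side, 31 of the 37 genes had a peak (83.8%, 68.9% to 92.3%), beside 61.2% of all protein-coding genes and 58.4% of those of similar length. The 6 genes without one were Dppa3, Fgf4, Klf4, Lin28a, Tcl1 and Utf1. The Wilson intervals cover counting error alone, and neighbouring genes such as Lefty1 and Lefty2 share peaks.

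Inside the gene body, 15 genes had a peak (40.5%, 26.3% to 56.5%), where 38.6% of all protein-coding genes and 33.2% of those of similar length had one. Within 1 kb of an annotated transcript start, 7 genes had a peak (18.9%, 9.48% to 34.2%), beside 20.3% of all genes. A peak from F9 EC cells lay at 36 genes, against 88.5% of all genes, and a peak from ES cells at 13 genes (35.1%, 21.8% to 51.2%), against 33.9%. The counts for gene bodies, transcript starts and ES cell peaks were thus near those of all genes. When every sample was held to a p under 1e-10 and a fold over 20, 34 genes kept a peak (91.9%), beside 84% of all genes, and Eras, Tcl1 and Utf1 had none.

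**Figure D1:**
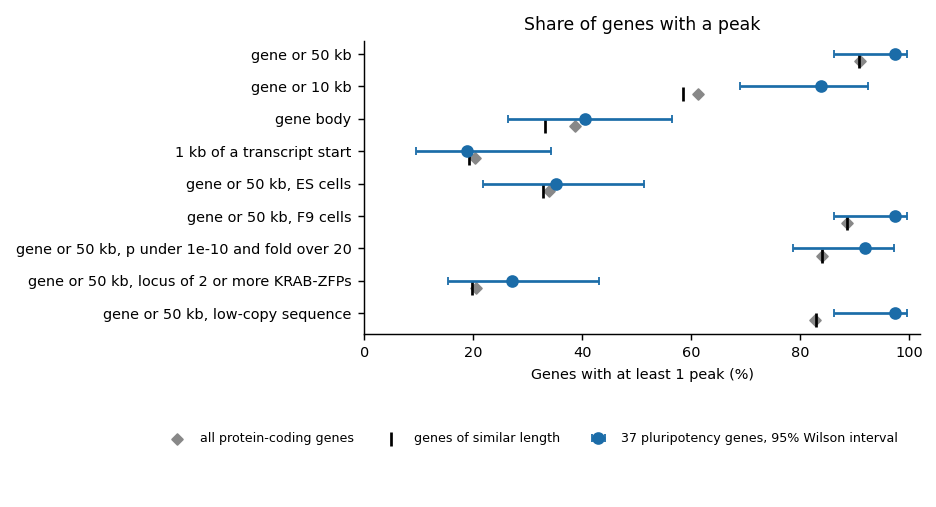
Share of genes with at least 1 KRAB-ZFP peak (x axis, percent) under 9 definitions of where the peak lay or which peaks counted (rows). Blue points are the 37 pluripotency genes with 95% Wilson intervals, grey diamonds are all protein-coding genes and black ticks are genes of similar length. For the gene and 10 kb on either side, the pluripotency genes sit at 83.8% and all genes at 61.2%, while for gene bodies and transcript starts the grey diamonds lie inside the intervals.

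The windows of the 37 genes covered 4.51 Mb, 0.176% of the known bases of the genome, and the 151 peaks in them were 0.285% of all peaks (0.243% to 0.334%). That is 33.5 peaks per Mb, beside 22.9 per Mb in the windows of all protein-coding genes together and 20.7 per Mb over the genome. Overlapping windows were counted once, so the per-Mb values are not means per gene, and they were not matched for gene length. Per gene, the number of peaks had a median of 4, against 3 over all protein-coding genes, and a mean of 4.27, against 3.73 over genes of similar length. The medians of the 37 genes and of all genes were equal under several alternatives, given below. Of the 37 genes, 19 had more peaks than the median gene of similar length, 10 had as many and 8 had fewer.

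Most of the genes lay close together, since 33 had 2 to 6 peaks. The others were Nr5a2 with 13, Pou5f1 and Dppa5a with 8 each, and Tcl1 with 0. As many peaks as at Dppa5a were found at 2.74% of the genes of similar length, as many as at Nr5a2 at 3.20% and as many as at Pou5f1 at 7.39%, and these were the 3 genes under 10%. This share is a gene's rank among genes of similar length, so up to about 10% of all genes fall under 10% by construction. The 3 of 37 genes here were near that. At the low end, Nanog, Dppa2, Dppa3, Lin28b, Fgf4 and Eras had 2 peaks each, the number reached or passed by 76.9% of all protein-coding genes.

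**Figure D2:**
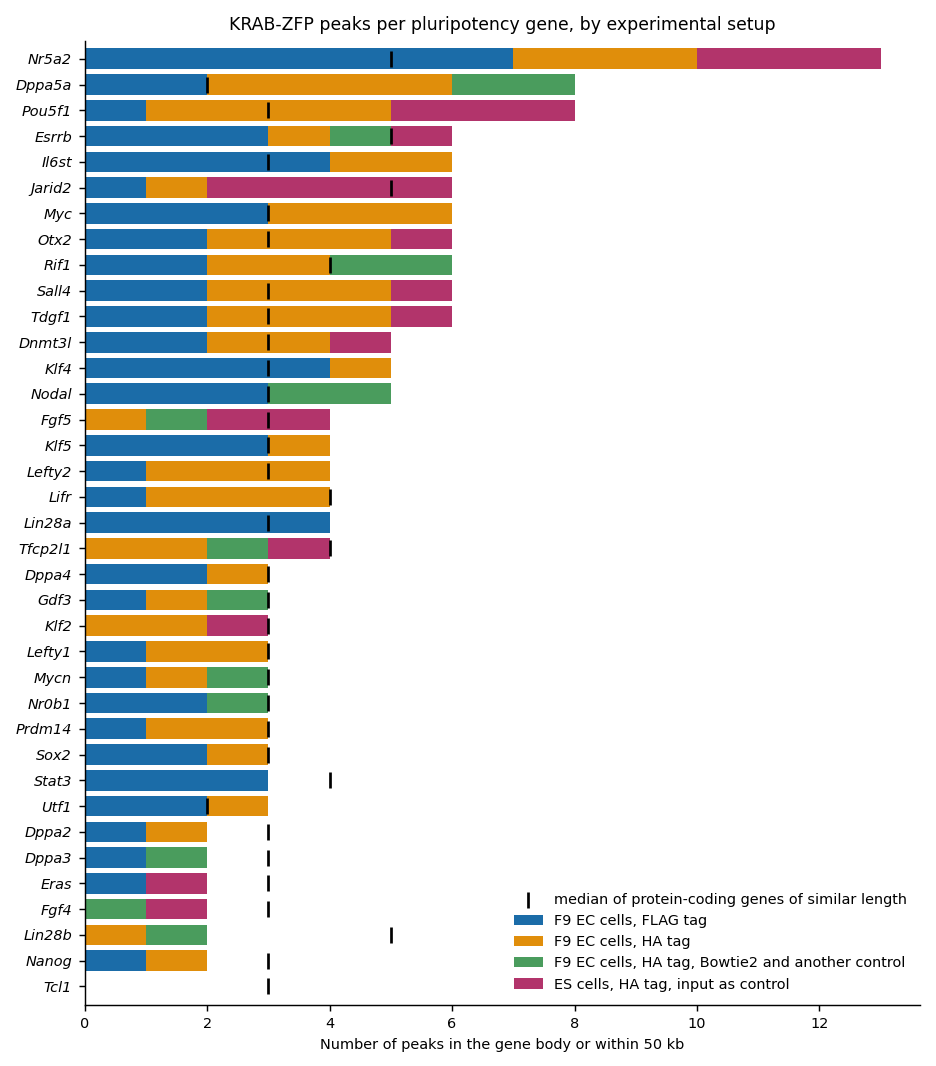
Number of peaks in the gene body or within 50 kb (x axis) for each of the 37 genes (rows), with bars divided by cell line, tag and control. Black ticks mark the median of protein-coding genes of similar length, which is 2 to 5 peaks. Nr5a2 has the longest bar with 13 peaks, Tcl1 has no bar, and a peak shared by neighbouring genes is counted at each of them.

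Among the core transcription factors, Pou5f1 (chr17:35642982-35647721, plus strand) had 8 peaks of 6 KRAB-ZFPs. The 3 peaks from ES cells were all of Gm14419. The strongest lay in an intron of Pou5f1, 932 bp from the 5' end of the gene and 513 bp upstream of an internal transcript start, with 34 tags and a fold of 21.64. The others lay 35304 bp upstream, in a non-coding exon of H2-Q10 (28 tags, fold 8.34), and 5009 bp downstream, in an intron of Tcf19 (30 tags, fold 12.95). Gm14419 was thus the KRAB-ZFP with a peak inside Pou5f1, and its fold there was above those at its neighbouring sites.

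The other 5 peaks at Pou5f1 came from F9 EC cells and lay outside the gene. Upstream they were those of Gm13225 at 4734 bp (fold 11.41), Zkscan17 at 7176 bp (8 tags, fold 11.18), Zfp661 at 15578 bp (fold 23.28) and Zfp759 at 25972 bp (fold 21.01). Downstream, Zfp709 lay at 15002 bp in an intron of Cchcr1, with a fold of 16.33. Of the 8 peaks, 3 passed a fold of 20 with a p under 1e-10, those of Zfp661, Zfp759 and Gm14419 in the intron.

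The intron window is shown since it is the KRAB-ZFP peak in the body of Pou5f1 (chr17:35643815-35644014, plus strand). Its 200 bases held 3 CpG dinucleotides and 49.5% G and C, and all are in lower case because none matched the 8-mer ACTGTGGG on either strand. That 8-mer was the one that best set the low-copy peaks of Gm14419 (14.7% with it) apart from those of the other KRAB-ZFPs (1.20%).
Pou5f1 intron, Gm14419 window: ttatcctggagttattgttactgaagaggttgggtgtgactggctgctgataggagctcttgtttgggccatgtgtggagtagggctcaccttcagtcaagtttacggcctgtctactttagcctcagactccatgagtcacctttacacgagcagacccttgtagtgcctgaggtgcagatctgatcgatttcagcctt

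Sox2 had 3 peaks, all from F9 EC cells. Gm13152 lay in the 5' UTR, 235 bp downstream of a transcript start, with 82 tags and a fold of 28.81, in a window of 79% G and C. LOC102638055 and Zfp661 lay 1566 bp and 18671 bp downstream of Sox2, in introns of the overlapping Sox2ot transcript, with folds of 34.63 and 25.31. All 3 passed a fold of 20 with a p under 1e-10. Nanog had 2 peaks and none in its body. Zfp595 lay 1647 bp upstream, with a fold of 11.52 and a false discovery rate of 6.82%, and Gm13154 lay 30808 bp downstream, in an intron of Slc2a3, with a fold of 38.06.

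The 12 naive and ancillary transcription factors had 3 to 13 peaks each, with a median of 4.5. Nr5a2, which encodes the nuclear receptor LRH-1, had the most of the 37 genes. Its 13 peaks came from 10 KRAB-ZFPs, over a gene of 116844 bp (chr1:138740161-138857004, minus strand). Inside its introns lay 6 peaks of 5 KRAB-ZFPs, which were 2 of Gm13225 (folds 11.88 and 11.6) and 1 each of Gm13145 (30.01), Gm13251 (28.12), Gm13154 (32.67) and Zkscan17 (14.03 on 7 tags). Downstream lay Gm13251 at 2338 bp (fold 27.04), Zfp961 at 8526 bp (38.21), Gm13154 at 9765 bp (23.25), Gm14419 at 33443 bp (32.83), Gm8898 at 34321 bp (18.8) and Zfp709 at 46544 bp (10.36). A Gm14401 peak from ES cells lay 14936 bp upstream, with a fold of 17.18 and a false discovery rate of 15.45%. Binding at Nr5a2 was spread over the introns and the downstream flank, and 7 of the 13 peaks passed a fold of 20 with a p under 1e-10.

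Esrrb, an orphan nuclear receptor, had the next most peaks inside the gene. Of its 6 peaks, 5 lay in its introns, over a gene of 160512 bp, and genes of similar length had a median of 5. The intron peak of Gm13152 had the highest fold (35.36), followed by those of Gm14401 (24.02, false discovery rate 17.72%), Gm14412 (22.99), Zfp661 (20.65) and Gm13225 (14.97), and another Gm13225 peak lay 43811 bp upstream (10.26). Tfcp2l1, a factor downstream of STAT3, had 4 peaks, and 2 of them lay in its introns, those of Zfp712 (146 tags, fold 40.97, false discovery rate 7.69%) and Gm14401 (10 tags, fold 9.14, 10.02%).

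The Kruppel-like factors Klf2, Klf4 and Klf5 had 3, 5 and 4 peaks. At Klf5 a Zfp661 peak (100 tags, fold 21.71) lay 3004 bp from the 5' end in a coding exon, and it was the only 1 of the 151 peaks in coding sequence. The nearest peak to Klf4 was 12243 bp downstream, so its 5 peaks all lay outside 10 kb. At Klf2 the peaks of Gm13235 (fold 10.39), Gm14419 (24.37) and Zfp661 (39.94) lay 6510 bp upstream, 7110 bp downstream and 12355 bp downstream. None of the 3 genes had a peak within 1 kb of a transcript start.

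Myc, the basic helix-loop-helix factor, was bound at its start. Gm13152 had 2 peaks in its 5' UTR, 49 bp from the 5' end with 98 tags and a fold of 38.13, and 56 bp from an internal transcript start with 73 tags and a fold of 31.81. The other 4 peaks lay downstream, those of Zkscan17 at 7104 bp (fold 13.69), Zfp273 at 20595 bp (27.31, false discovery rate 9.77%), Zfp457 at 24572 bp (12.9) and Gm13251 at 40616 bp (20.17). Mycn, its paralogue, had 3 peaks and none at its start. Gm13152 lay 8781 bp downstream of it with a fold of 38.17, while Zfp457 (fold 13.76) and Gm14326 (fold 10.22, false discovery rate 100%) lay 33773 and 18614 bp upstream.

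Sall4, a zinc finger factor of the OCT4 circuit, and Otx2, a homeobox factor of the primed state, had 6 peaks each from 6 KRAB-ZFPs, none in the gene body. The Zfp617 peak 42439 bp downstream of Sall4, in an intron of Atp9a, had 113 tags and a fold of 102.25, next to the highest of the 151. Besides Gm13145 (25.6) and Zfp595 (17.92) at the same place, Gm13225 (12.11), Gm14399 in ES cells (10.46, false discovery rate 31.92%) and Zfp457 (17.45) lay 4022, 5814 and 17074 bp upstream. At Otx2 the highest folds were those of Zfp810 (40.2), Gm13152 (36.36, 6091 bp upstream) and Zfp712 (30.81), and Zfp935 (12.79), Gm13235 (12.0) and Gm14401 (8.33, false discovery rate 9.86%) had the others. Nr0b1, the corepressor DAX1, had 3 peaks with folds of 30.84 (Gm30910), 33.63 (Gm13152) and 32.08 (Gm14406). Prdm14, a repressor of FGF signalling in naive cells, had 3 with folds of 38.85 (Zfp661), 10.06 (Zfp709) and 10.33 (Gm13247), the last 2060 bp upstream on 15 tags. Peaks at these 4 genes were outside gene bodies without exception, which was common. In all, 22 of the 37 genes had no peak in the body, and 38.6% of all protein-coding genes had one.

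The LIF receptor genes had peaks from F9 EC cells, and no ES cell peak lay at any of the 3 LIF signalling genes. Only 33.9% of all protein-coding genes had an ES cell peak, so 3 genes without one are unremarkable. The ES set held 9 KRAB-ZFPs, against 58 in F9 EC cells. Lifr (chr15:7079559-7147489, plus strand), the ligand-binding receptor subunit, had peaks of Gm13152 and Zfp874a 267 and 225 bp upstream of its start. It also had a Zfp709 peak in an intron (16 tags, fold 11.36) and a Zfp58 peak 12553 bp upstream (53 tags, 22.35, false discovery rate 7.76%). Il6st, which encodes the shared subunit gp130, had 6 peaks, and all 6 passed a fold of 20 with a p under 1e-10. They were those of Zfp599 (125 tags, fold 62.61, 9247 bp upstream), Gm13152 (48.17) and Gm13154 (40.51) about 11516 bp downstream, Zfp661 (41.87, 34103 bp upstream), Gm21082 (26.02, in an intron of Il31ra) and Zfp617 (23.15, in an intron of Il6st). Stat3, the transcription factor of the pathway, had 3 peaks of 2 KRAB-ZFPs. Gm13251 (fold 23.57) and Gm13225 (11.46) lay 653 and 455 bp past its 3' end, in the 3' UTR of the neighbouring Stat5a, and Gm13225 lay 15641 bp upstream (14.28).

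Among the 7 genes for secreted ligands and the NODAL co-receptor, the number of peaks was 2 to 6 with a median of 4. The highest fold of all 151 peaks lay here. Zfp599 had a peak of 197 tags and a fold of 106.44 at the end of Lefty1 (chr1:182865153-182868531, plus strand), in its 3' UTR, which is also 39217 bp downstream of Lefty2. LEFTY1 and LEFTY2 are inhibitors of NODAL. Between the genes, Zfp661 lay 15088 bp upstream of Lefty1 (fold 35.12). Upstream of Lefty2, outside the pair, lay Gm13152 at 3076 bp (40.02) and another Zfp661 peak at 18898 bp (22.08). All peaks at this gene pair passed a fold of 20 with a p under 1e-10.

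Nodal itself had 5 peaks, with folds of 35.5 (Gm14412, 3697 bp upstream), 23.5 (Gm6710) and 20.17 (Gm13251) about 20598 bp upstream, 26.13 (Gm13154) and 39.32 (Zfp617) downstream. Of these 5, 3 were in sequence with 575 or more exact copies in the genome. Tdgf1, the co-receptor CRIPTO, had 6 peaks, with folds of 79.03 (Zfp961, 32184 bp downstream), 34.02 (Gm21082), 25.71 (Zfp759), 22.16 (Gm14419), 13.76 (Zfp457) and 12.33 (Zfp935). Those of Zfp759 and Zfp457 lay in its intron.

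Fgf5, a ligand switched on as cells leave the naive state, had a Gm14412 peak in its 5' UTR 89 bp from the start (65 tags, fold 24.82). Its highest fold, 47.01, was that of Gm14419 in ES cells 42676 bp upstream, in sequence with a median of 1130 copies. Gm8898, also in ES cells, lay 44245 bp upstream (14 tags, fold 19.69, 959 copies) and Zfp709 lay 9982 bp downstream (fold 11.14). Fgf4, the ligand that drives ERK in ES cells, had 2 peaks far from the gene, those of EtOHi1 39411 bp upstream (fold 13.06) and Gm14401 49783 bp downstream (fold 21.06, false discovery rate 14.19%). Gdf3, a ligand of the TGF-beta family, had 3 with folds of 31.64 (Zfp661), 30.2 (Gm14412) and 27.34 (Zfp617), of which the last 2 also lay within 50 kb of Dppa3. Of these ligand genes, only Fgf5 had a peak within 1 kb of its start.

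Lin28a and Lin28b encode RNA-binding proteins that block maturation of the let-7 microRNAs. Lin28a had 4 peaks, all downstream by 14817 bp or more, those of Gm13152 (fold 49.08), Gm13251 (21.59) and Gm13225 (10.25 and 12.16). Lin28b, a gene of 109776 bp, had 2 where genes of similar length had a median of 5, a Zfp599 peak in its intron (fold 37.27) and a Gm14406 peak 49112 bp upstream in sequence with 8299 copies (fold 30.09). No peak of either gene lay within 1 kb of a transcript start.

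The chromatin genes had 5 or 6 peaks each. Dnmt3l, a cofactor of de novo DNA methylation, had none in its body and folds of 10.42 to 27.27, the highest being that of Gm13152 6029 bp downstream in an intron of Icosl. Jarid2, a subunit of the Polycomb complex PRC2 and a gene of 192170 bp, was the gene with the most ES cell peaks, 4 of 6. These were Gm14401 864 bp upstream of the start (21 tags, fold 8.17, false discovery rate 11.86%) and in an intron (9 tags, 12.81, 9.79%), Gm14420 in an intron (11 tags, 9.54, 33.67%) and Gm14419 downstream (15 tags, 11.67, 2.41%). All 4 were under a fold of 20, and 3 had a false discovery rate over 5%. Its peaks from F9 EC cells were stronger, those of Zfp712 23905 bp upstream (125 tags, fold 34.11, false discovery rate 9.09%) and Zfp810 49990 bp upstream (20 tags, fold 20.9). Rif1, which controls replication timing, had 6 peaks and none in its body. Upstream lay Zkscan17 at 1095 bp (7 tags, fold 14.31), Zfp493 at 1183 bp (11.82), Gm14412 at 40473 bp (36.8) and Gm13251 at 47905 bp (25.61), and downstream Gm14406 at 6728 bp (29.16) and Zfp961 at 45912 bp in an intron of Neb (31.59).

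Of the other 7 genes, Dppa5a had the most peaks for its length. Dppa5a (chr9:78214859-78215984, minus strand) encodes a KH-domain protein, spans 1126 bp and had 8 peaks of 8 KRAB-ZFPs, where genes of similar length had a median of 2. The nearest were Zfp493 1843 bp upstream (49 tags, fold 14.36), Gm13154 2056 bp downstream (59 tags, 36.37) and Zfp712 8774 bp downstream (92 tags, 25.74). Farther out lay Zfp617 (48.19), Gm14412 (32.52), Zfp759 (20.5), Gm13235 (12.68) and Gm14391 (11.31, false discovery rate 100%). None lay in the gene itself, and 5 of the 8 passed a fold of 20 with a p under 1e-10.

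Dppa2 and Dppa4, neighbouring genes for a pair of chromatin-binding partners, shared 2 peaks. Zkscan17 lay 818 bp upstream of Dppa2, with 7 tags and a fold of 11.45, and Gm13251 lay 8327 bp upstream of Dppa4 (fold 26.55), which is 35069 bp upstream of Dppa2, and Dppa4 had a second Gm13251 peak 27027 bp upstream (21.35). Dppa3, known as STELLA, had the Gm14412 and Zfp617 peaks named for Gdf3, 10727 bp upstream and 13750 bp downstream of it. Utf1, a chromatin-associated factor, had 3 peaks, all downstream by 27765 bp or more, with folds of 11.32 to 15.31. Eras, a RAS-like GTPase of ES cells, had 2, a Gm14401 peak in its intron (15 tags, fold 16.02, false discovery rate 11.29%) and a Gm13225 peak 14547 bp upstream (12.76). Tcl1, a coactivator of AKT, had 0 peaks within 50 kb.

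**Figure D3:**
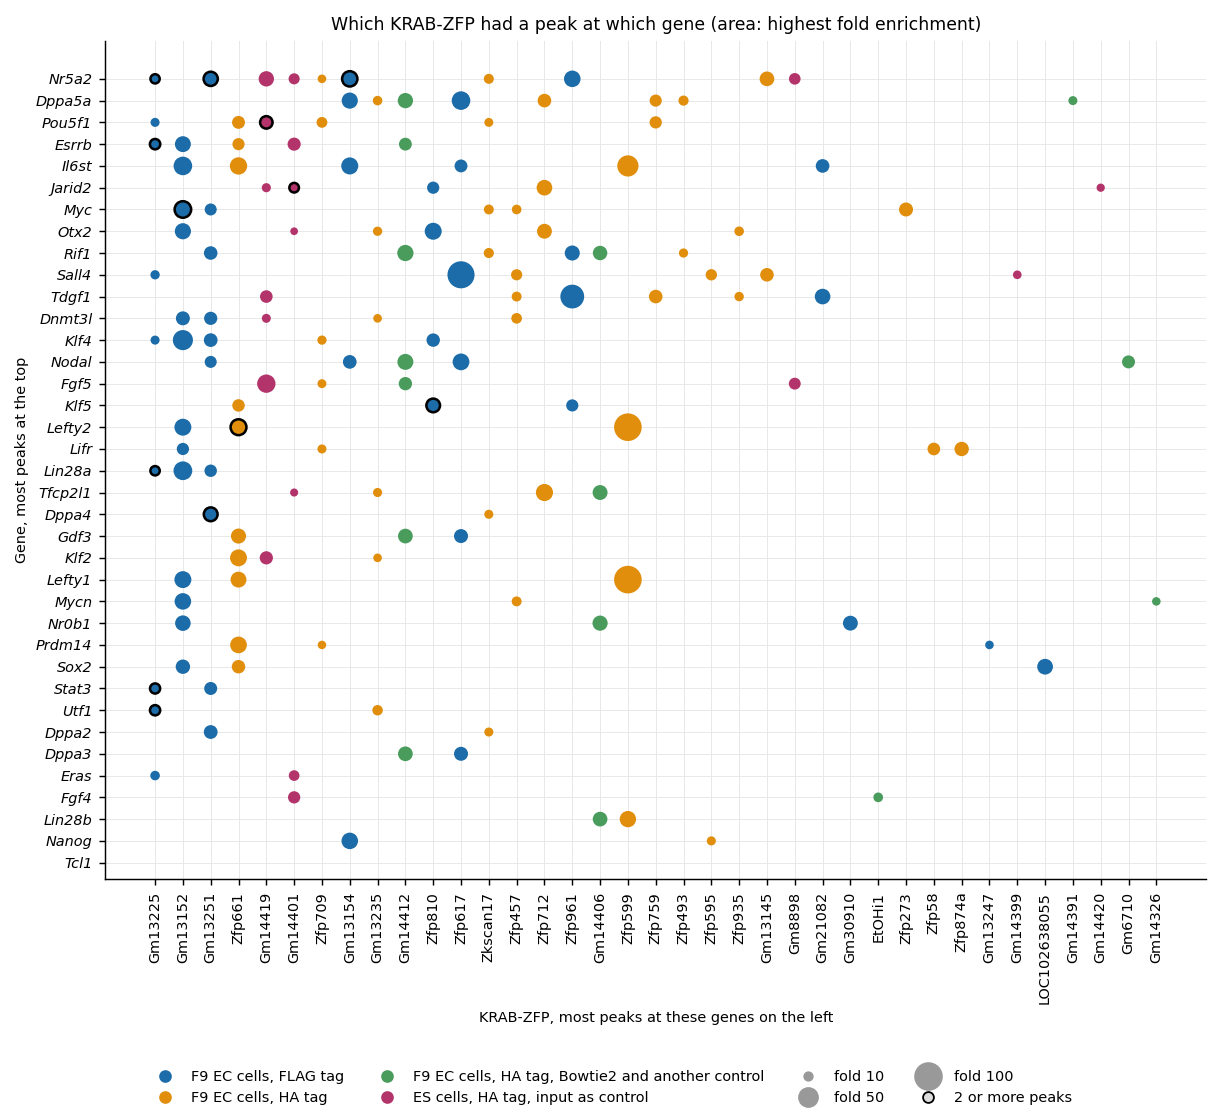
KRAB-ZFP peaks at each gene, with the 37 genes in rows and the 37 KRAB-ZFPs that had a peak in columns. Each point is a gene and KRAB-ZFP pair, its area grows with the highest fold enrichment, its colour gives the cell line, tag and control, and a black ring marks 2 or more peaks. The largest points are Zfp599 at Lefty1 and Lefty2 (106.44) and Zfp617 at Sall4 (102.25), and the row of Tcl1 is empty.

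Across the 7 genes with a peak within 1 kb of a transcript start, Gm13152 was the most frequent KRAB-ZFP. It held 4 of the 9 such peaks, at Lifr (111 tags, fold 20.9), Myc (38.13 and 31.81) and Sox2 (28.81). The rest were Zfp874a at Lifr (47 tags, fold 28.77), Gm14412 at Fgf5 (24.82), Gm14419 at Pou5f1 (21.64), Zkscan17 at Dppa2 (11.45) and Gm14401 at Jarid2 (8.17). Those at Dppa2 and Jarid2 rested on 7 and 21 tags and had the lowest folds of the 9. Over all protein-coding genes Gm13152 held 48.3% of the start peaks, and 11.8% of these genes had one, so its 4 of 9 peaks (44.4%) at 3 of the 37 genes (8.11%, 2.80% to 21.3%) were near the background. Without Gm13152, 5 genes kept a start peak (13.5%), and the share of all protein-coding genes fell from 20.3% to 10.9%. Another 9 of the 151 peaks lay within 1 kb of the start of a neighbouring gene.

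By annotation, 91 of the 151 peaks (60.3%) lay between genes and 46 (30.5%) in introns, 22 of these in an intron of a pluripotency gene itself. A further 7 lay in a 3' UTR, 4 in a 5' UTR, 2 in a non-coding exon and 1 in a coding exon. The 4 in a 5' UTR were the start peaks of Myc, Sox2 and Fgf5. Of the 158 gene and peak pairs, 66 were upstream of the gene, 64 downstream and 28 in its body. Outside the gene body but within 10 kb of it lay 24.1% of the pairs, where over all protein-coding genes 15.9% did, and in the body 17.7%, where over all genes 24.3% did.

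A smaller share of these peaks than of all peaks lay in sequence with many exact copies. The median number of exact copies in mm9 of the 24-mers in a window was 10 or more in 24 of the 151 peaks, 15.9% (10.9% to 22.6%), beside 34.5% of all peaks and 26.2% of the peaks in the windows of all protein-coding genes. It was 1 in 123 peaks, 81.5% (74.5% to 86.8%), beside 58.3% of all peaks and 66.7% in gene windows. In ES cells 6 of 21 peaks were multi-copy (28.6%, against 61.5% of all ES cell peaks), and in F9 EC cells 18 of 130 (13.8%, against 28.9%). Without Gm14406, which put 91.6% of its 5685 peaks in multi-copy sequence, the shares were 13.6% at pluripotency genes and 27.7% over all peaks. A peak in low-copy sequence was present at 36 of the 37 genes, beside 82.7% of all protein-coding genes. Reads that map to several places were set at 1 of them pseudo-randomly, so the position of a multi-copy peak is uncertain.

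**Figure D4:**
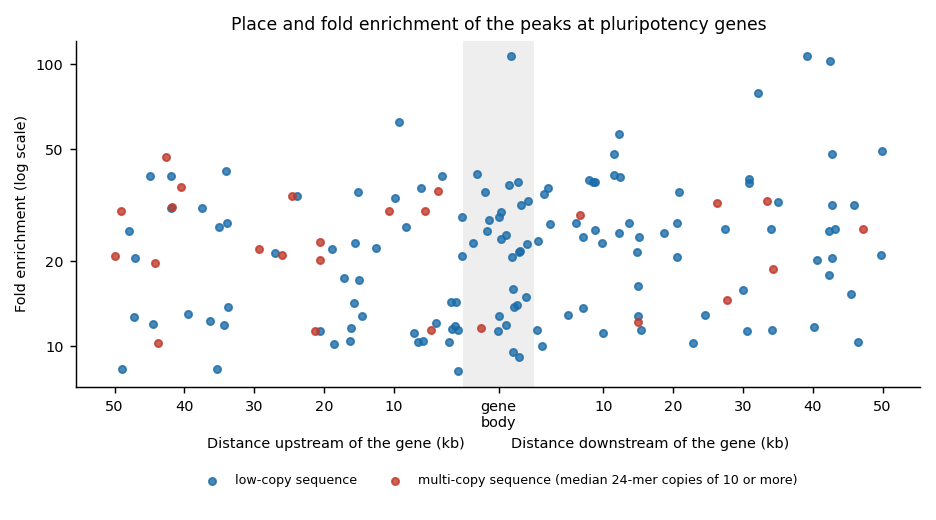
Place and fold enrichment of the 158 gene and peak pairs. The x axis is the distance in kb from the nearer end of the gene, upstream on the left and downstream on the right, with peaks inside the gene spread over the grey band, and the y axis is fold enrichment on a log scale. Red points are windows with a median of 10 or more exact 24-mer copies, and all but 1 of them lie outside the grey band.

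For some KRAB-ZFPs the study had designed a short reporter oligo from the bound retrotransposon, and its best ungapped match was sought on both strands of each window. At 70% identity or more, 10 peaks at pluripotency genes held a match, 5 of them for Zfp617. Its oligo, from the ORR1A2 long terminal repeat, is shown with its sites at 5 genes (mm9), because these are a retrotransposon sequence beside Dppa3, Sall4, Il6st, Nodal and Dppa5a. In the oligo, capitals mark the 8-mer GTCATGGT (ACCATGAC on the other strand), and in the sites they mark bases equal to the oligo.
Zfp617 oligo, ORR1A2: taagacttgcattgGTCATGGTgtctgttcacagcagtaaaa
Dppa3 site, Zfp617, chr6:122594045-122594086, plus strand: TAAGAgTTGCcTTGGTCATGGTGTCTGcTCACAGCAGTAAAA
Sall4 site, Zfp617, chr2:168531322-168531363, plus strand: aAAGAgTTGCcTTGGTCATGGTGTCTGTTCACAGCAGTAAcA
Il6st site, Zfp617, chr13:113276838-113276879, minus strand: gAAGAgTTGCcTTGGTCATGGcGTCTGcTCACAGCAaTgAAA
Nodal site, Zfp617, chr10:60918991-60919032, plus strand: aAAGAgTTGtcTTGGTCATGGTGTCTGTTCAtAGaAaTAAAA
Dppa5a site, Zfp617, chr9:78172199-78172240, minus strand: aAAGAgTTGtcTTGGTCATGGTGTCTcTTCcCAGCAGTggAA

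These sites matched 39, 38, 35, 35 and 34 of the 42 bases. As many bases as at Dppa3 matched in 35.6% of the peaks of Zfp617 and in 0.0230% of the peaks of the other KRAB-ZFPs, and as many as at Sall4 in 51.2% and 0.0364%. The fold was 27.34 at Dppa3, 102.25 at Sall4, 23.15 at Il6st, 39.32 at Nodal and 48.19 at Dppa5a, so the order of folds was not that of the matches. The 8-mer itself stood in 4 of the 5 windows, all but that of Il6st. It stood in 79.8% of all peaks of Zfp617 and in 1.47% of those of other KRAB-ZFPs.

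The oligo of Zfp961 was a lysine tRNA primer binding site (PBS-Lys1,2), the stretch of a retrovirus where reverse transcription starts. It had peaks at Tdgf1, Rif1, Klf5 and Nr5a2, and all 4 windows held the 8-mer TGGCGCCC (GGGCGCCA on the other strand). This 8-mer is in 47.0% of its peaks and 0.322% of those of other KRAB-ZFPs. The oligo and 30 bases around the 8-mer at each gene are shown for that shared core, which is in capitals.
Zfp961 oligo, PBS-Lys1,2: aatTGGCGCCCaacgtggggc
Tdgf1 site, Zfp961, chr9:110809889-110809918, minus strand: gacaacTGGCGCCCaacgtaggtcccccgg
Rif1 site, Zfp961, chr2:52023788-52023817, minus strand: agacagTGGCGCCCcagggggagctatttg
Klf5 site, Zfp961, chr14:99733247-99733276, plus strand: gtctgaTGGCGCCCagtctggatcctcctg
Nr5a2 site, Zfp961, chr1:138731625-138731654, plus strand: ccacagTGGCGCCCaggcagggagcacagc

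Against the whole 21-base oligo, the site at Tdgf1 matched 18 bases and that at Rif1 matched 15, while Klf5 and Nr5a2 were under 70%. As many as at Tdgf1 matched in 12.8% of the peaks of Zfp961 and 0.00582% of all other peaks, and as many as at Rif1 in 30.1% and 0.145%. The fold was 79.03 at Tdgf1, 38.21 at Nr5a2, 31.59 at Rif1 and 20.66 at Klf5. The peak with the closest match to the primer binding site was also the one with the highest fold of these 4.

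Gm13152 and Gm21082 had the remaining matches. The Gm13152 oligo, from the long terminal repeat RLTR13B1, is shown with its sites at Lin28a and Nr0b1, because these peaks of Gm13152 lay far from any start, unlike those at Lifr, Myc and Sox2. The Gm21082 site at Tdgf1 is shown as the one exact copy of an oligo, that of IAPLTR1_Mm. Capitals mark the 8-mer AGAGGGTC (GACCCTCT on the other strand) in the first oligo and bases equal to the oligo in the sites.
Gm13152 oligo, RLTR13B1: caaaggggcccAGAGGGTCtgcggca
Lin28a site, Gm13152, chr4:133509309-133509334, minus strand: CAAAGGGGCCCtGAGGGTCTGtGGCA
Nr0b1 site, Gm13152, chrX:83427254-83427279, plus strand: CAAAGGGaCCCAGAGGGTCTaCaGCA
Tdgf1 site, Gm21082, chr9:110873232-110873261, minus strand: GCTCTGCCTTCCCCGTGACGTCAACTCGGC

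At Lin28a 24 and at Nr0b1 23 of 26 bases matched. As many as at Lin28a matched in 14.6% of the peaks of Gm13152 and 0.00836% of other peaks, and as many as at Nr0b1 in 17.7% and 0.0167%. The other 11 peaks of Gm13152 at pluripotency genes were under 70%. They include peaks also more than 1 kb from any start, such as those at Otx2 (61.5%), Klf4 (57.7%) and Mycn (50%). The Gm21082 site matched 30 of 30 bases, as did 75.4% of the peaks of Gm21082, in an intron of Lrrc2 24573 bp upstream of Tdgf1, and its window had a median of 1111 copies. None of the 10 peaks of Zfp661, the 9 of Gm14419 or the 3 of Zfp599, the highest fold included, held the 8-mer of their KRAB-ZFP (CAAAGCTG, ACTGTGGG and AACATGGC, each also sought on the other strand). These 8-mers stand in 10.2%, 5.17% and 41.9% of all peaks of the same KRAB-ZFPs, and in 10.7%, 14.7% and 40.5% of their low-copy peaks. Of the 9 Gm14419 peaks, 4 were multi-copy. With so few windows, finding none is not far from these shares. The absence of such letters says only that they are not in these windows.

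Peaks of different KRAB-ZFPs that overlapped by at least 25% formed 11 shared loci at 10 of the 37 genes (27.0%, 15.4% to 43.0%), beside 20.4% of all protein-coding genes. They were 11 of the 139 loci there, 7.91% (4.48% to 13.6%), where 6.31% of all loci were shared. At 6 of the 11 loci the KRAB-ZFPs came from the same setup and so shared controls, and 10 of the 11 were in low-copy sequence. The share of shared loci at these genes was near that of the genome.

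The locus at Lifr was the 1 shared locus within 1 kb of a transcript start. Gm13152 (fold 20.9) and Zfp874a (fold 28.77) came from different setups, and their midpoints were 42 bp apart. Over the genome these 2 shared 5 loci, 3.38% of those of Zfp874a and 0.0964% of those of Gm13152. The 242 bases of the locus (chr15:7079193-7079434, plus strand) are shown since they are the promoter of the LIF receptor, with the 158 bases common to both windows in capitals. They held 34 CpG dinucleotides and 75.2% G and C.
Lifr promoter locus, Gm13152 and Zfp874a: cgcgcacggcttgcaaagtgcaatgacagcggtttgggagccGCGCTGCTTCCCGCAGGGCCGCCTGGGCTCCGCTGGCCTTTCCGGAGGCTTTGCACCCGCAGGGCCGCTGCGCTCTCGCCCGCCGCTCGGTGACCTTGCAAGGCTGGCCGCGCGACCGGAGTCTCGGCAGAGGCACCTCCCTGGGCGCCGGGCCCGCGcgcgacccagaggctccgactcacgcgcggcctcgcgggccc

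Downstream of Klf4, Gm13152 (123 tags, fold 56.35) and Zfp810 (20 tags, fold 25.13) met 12264 bp from the gene with midpoints 21 bp apart. The pair shared 23 loci over the genome, 9.47% of those of Zfp810 and 0.443% of those of Gm13152. The locus (chr4:55527650-55527870, plus strand) is shown as the strongest Gm13152 peak at these genes, with the 179 common bases in capitals, and it too was rich in G and C (69.2%) with 21 CpG dinucleotides, away from any annotated start.
Klf4 downstream locus, Gm13152 and Zfp810: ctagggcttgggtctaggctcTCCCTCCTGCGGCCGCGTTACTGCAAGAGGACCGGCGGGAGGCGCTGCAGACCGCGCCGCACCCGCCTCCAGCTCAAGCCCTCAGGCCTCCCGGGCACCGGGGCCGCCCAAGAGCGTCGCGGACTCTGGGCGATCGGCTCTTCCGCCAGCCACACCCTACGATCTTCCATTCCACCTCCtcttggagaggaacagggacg

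In the intron of Nr5a2, the midpoints of Gm13145 (fold 30.01) and Gm13251 (fold 28.12) were 3 bp apart although tag and antibody differed. These KRAB-ZFPs shared 97 loci over the genome, 21.8% of those of Gm13145 and 2.94% of those of Gm13251. Upstream of Otx2 by 41882 bp, Zfp810 (fold 40.2) and Zfp712 (fold 30.81), again from different setups, lay 24 bp apart, and they shared 9 loci, 3.70% and 4.57% of theirs. Both loci are shown as the closest pair and the pair with the highest shares of peaks at pluripotency genes (chr1:138819584-138819786 and chr14:49329102-49329325, plus strand, common bases in capitals).
Nr5a2 intron locus, Gm13145 and Gm13251: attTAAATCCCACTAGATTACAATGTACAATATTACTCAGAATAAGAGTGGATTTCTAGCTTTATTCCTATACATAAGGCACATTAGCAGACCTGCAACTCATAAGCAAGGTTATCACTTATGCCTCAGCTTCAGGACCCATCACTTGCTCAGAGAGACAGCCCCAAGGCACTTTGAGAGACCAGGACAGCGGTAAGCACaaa
Otx2 upstream locus, Zfp810 and Zfp712: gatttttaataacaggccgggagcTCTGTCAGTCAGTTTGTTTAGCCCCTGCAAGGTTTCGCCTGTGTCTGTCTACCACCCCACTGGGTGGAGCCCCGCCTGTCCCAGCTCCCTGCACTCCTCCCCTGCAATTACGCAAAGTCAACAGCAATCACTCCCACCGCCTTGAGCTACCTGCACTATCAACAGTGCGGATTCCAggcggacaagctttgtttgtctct

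The locus downstream of Sall4, in the intron of Atp9a, was the 1 locus of 3 KRAB-ZFPs, with Zfp617 (fold 102.25), Gm13145 (25.6) and Zfp595 (17.92) within 109 bp. Zfp617 shared 1 locus with each of the others over the genome, which was this locus, while Gm13145 and Zfp595 shared 14, 10.3% of those of Zfp595. In the intron of Tdgf1, Zfp759 (25.71) and Zfp457 (13.76) lay 19 bp apart, and upstream of Dppa5a, in an intron of Ddx43, Zfp759 (20.5) and Gm13235 (12.68) lay 4 bp apart. Pairs with Zfp759 were common over the genome, with 96 loci shared with Zfp457 and 134 with Gm13235.

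The last 4 shared loci were of Gm13152 (48.17) and Gm13154 (40.51) downstream of Il6st, Zkscan17 (14.31) and Zfp493 (11.82) 1183 bp upstream of Rif1, Gm6710 (23.5) and Gm13251 (20.17) upstream of Nodal, and Gm13251 (26.15) and Gm13225 (11.42) downstream of Klf4. The Nodal locus was the multi-copy one. Gm13225 and Gm13251 also lay within 500 bp of each other at Lin28a, Nr5a2 and Stat3. In all, 4 of the 11 Gm13251 peaks at pluripotency genes had a Gm13225 peak that near, beside 22.2% of all 3300. The peaks called for Gm13225 were wide, with a median of 2310 bp against 263 bp for Gm13251.

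By KRAB-ZFP, 37 of the 67 had a peak at a pluripotency gene and 12 of these had 1. The 30 without one had fewer peaks in all, 52 to 550 with a median of 172.5, against a median of 697 for the others. For Gm13051, the largest of them, 0 of 550 peaks allows a share of up to 0.545%. Gm13225 had 14 peaks at 9 of the genes, Gm13152 had 13 at 13 genes, Gm13251 had 11 at 10, Zfp661 had 10 at 10 and Gm14419 had 9 at 7. Together these 5 held 37.7% of the peaks at pluripotency genes, beside 32.1% of all peaks.

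As a share of a KRAB-ZFP's own peaks, and among those with at least 3 peaks here, Zfp810 came first with 5 of 243 (2.06%, 0.882% to 4.73%). It was followed by Zfp712 with 4 of 197 (2.03%, 0.792% to 5.10%), Zfp661 with 10 of 1065 (0.939%, 0.511% to 1.72%), Zfp617 with 5 of 764 (0.654%, 0.280% to 1.52%) and Gm14401 with 8 of 1541 (0.519%, 0.263% to 1.02%). The intervals of the first 3 lay above the 0.285% of all peaks, as did those of Zfp493 and Zfp595 with 2 peaks each, and that of Gm14406 (4 of 5685, 0.0704%, 0.0274% to 0.181%) lay below it. These 67 intervals were not adjusted for their number. Of the 5 Zfp810 peaks, 2 were neighbouring windows 42765 and 43116 bp downstream of Klf5, which its interval counts as separate. Another lay 49990 bp upstream of Jarid2, at the edge of the 50 kb flank. Zfp661 and Zfp712 had 90.0% and 91.4% of their peaks within 50 kb of some protein-coding gene, against 71.3% of all peaks and 47.5% of those of Gm14406, and the part of this in their shares was not tested.

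**Figure D5:**
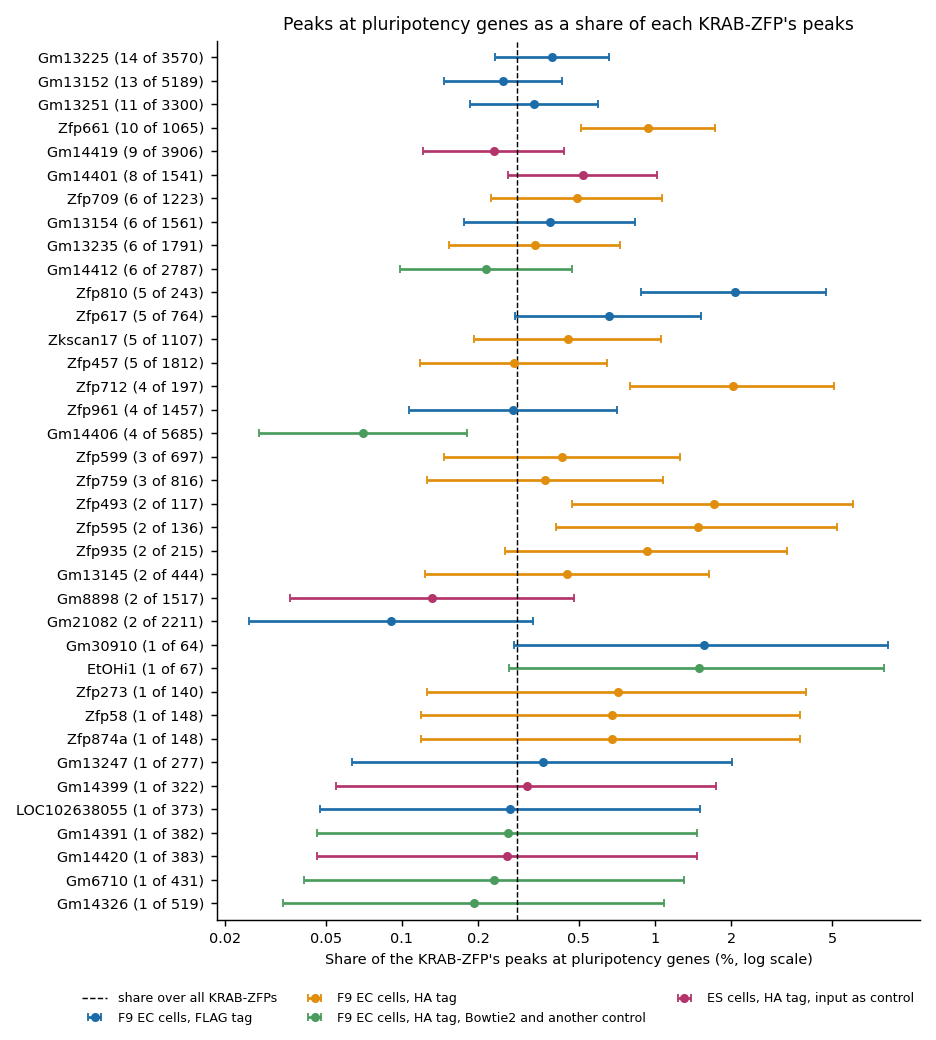
Share of each KRAB-ZFP's peaks that lay at the 37 pluripotency genes (x axis, percent, log scale), for the 37 KRAB-ZFPs with at least 1 such peak (rows, with the counts). Points carry 95% Wilson intervals, colours give cell line, tag and control, and the dashed line is the 0.285% over all KRAB-ZFPs. Zfp810 (2.06%) and Zfp712 (2.03%) lie farthest to the right of those with 3 or more peaks, and Gm14406 (0.0704%) farthest to the left.

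By setup, pluripotency genes held 63 of 20728 peaks with the FLAG tag (0.304%, 0.238% to 0.389%), 53 of 12683 with the HA tag in F9 EC cells (0.418%, 0.320% to 0.546%), 14 of 10478 in the Bowtie2 set (0.134%, 0.0796% to 0.224%) and 21 of 9122 in ES cells (0.230%, 0.151% to 0.352%). The 21 ES cell peaks came from 5 of the 9 KRAB-ZFPs, with 9 of Gm14419 and 8 of Gm14401. Of these 21 peaks, 10 had a false discovery rate over 5%, among them all 8 of Gm14401, at Eras, Esrrb, Fgf4, Jarid2, Nr5a2, Otx2 and Tfcp2l1. At a false discovery rate of at most 5%, 7 of the 37 genes kept an ES cell peak (18.9%), and 20.5% of all protein-coding genes did. Each KRAB-ZFP was mapped in 1 cell line, so no protein could be compared between them.

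A second list of 51 network genes outside the 37 gave the surroundings, namely further transcription factors and genes of the LIF, BMP, activin, WNT and FGF pathways and of DNA methylation. At least 1 peak lay at 50 of them (98.0%), all but Etv4, beside 90.9% of all protein-coding genes and 92.5% of those of similar length. The median in this list was 5 peaks, against 3 over all protein-coding genes. The 51 were longer genes than the 37, with a median of 31058 bp against 7367 bp. A peak lay in the body of 32 (62.7%, 49.0% to 74.7%), against 48.3% of genes of similar length and 38.6% of all genes. Within 1 kb of a start, 18 had a peak (35.3%, 23.6% to 49.0%), against 24.1% of genes of similar length and 20.3% of all genes. Among the 37 genes the share with a start peak was 18.9%, and the intervals of the lists overlapped.

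Of these 18 genes, 13 had a start peak of Gm13152. They include the kinase genes Jak1 (fold 20.58) and Jak2 (30.9), the SMAD genes Smad2 (21.81) and Smad3 (77.26), the activin receptor gene Acvr2b (24.54 and 20.93), Gsk3a (33.3) and Gsk3b (31.81) of the WNT pathway, Fgfr2 (29.08 and 28.01), and the FGF feedback inhibitors Spry2 (34.1) and Spry4 (70.38). The others with Gm13152 were Klf9, Mybl2 and Dnmt3a, while Tbx3, Zic2, Ctnnb1, Tet2 and Cdh1 had start peaks of other KRAB-ZFPs. The peaks of Fgfr2 were counted at any transcript start in an annotated body of 3009069 bp. Gm13152 held 15 of the 28 start peaks here (53.6%), beside 48.3% of the start peaks of all protein-coding genes. The 13 genes were 25.5% of this list (15.5% to 38.9%), beside 11.8% of all genes, a share not matched for gene length.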

How the data were processed

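Tagged KRAB-ZFPs were profiled by ChIP-seq in F9 EC cells and B6 ES cells, with 1 sample for each of the 67 KRAB-ZFPs used. The authors aligned reads to mm9 with Bowtie or Bowtie2, placed multi-mapping reads at 1 of the best positions, and called peaks per sample with MACS 1.4.2, keeping a p under 1e-10 or 1e-05 and, in F9 EC cells, a fold over 20 or 10. The deposited table gives 200 bp windows with tag counts per peak, not scaled to depth. It also gives a deposited score, 10 times the negative log10 of the p-value, the deposited fold enrichment over the local background, and the deposited false discovery rate in percent. The column order is that of a MACS peak table, since the file has no header. Left out were 244 peaks under 1 name with no label and 1 label with no peaks, and no column of another sample was present.

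Window midpoints were assigned to genes of gencode vM1 with a flank of 50 kb, in Python 3.11.15 with numpy 2.4.6, pandas 2.3.3 and scipy 1.17.1. The samples were grouped by cell line, tag and control. No test was run, since no group has replicates. The main counts of genes stand beside the share over all protein-coding genes, and only some of them also beside that over genes within a factor of 1.5 in body length. Shares carry 95% Wilson intervals, and the limit for a count of 0 rests on 3 counts, both for counting error only. Copy number is the median count of a window's 24-mers in mm9, with 10 or more called multi-copy. Peaks overlapping by at least 25% were merged into loci. The 8-mer of a KRAB-ZFP is the one whose share of its low-copy peaks most exceeded that in other KRAB-ZFPs, given at least 20 such peaks, and its share over all peaks includes the peaks at the 37 genes. The reporter oligos were the study's own designs. The assignment was tested on simulated peaks. Alternatives were stricter peaks, other flanks and start distances, another length band, and leaving out Gm13152, Gm13225, Gm14406 or the ES samples.

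The genes, the second list and the rule for named items were chosen with earlier results of these data known. Given in full are genes with a start peak, the 10 with most peaks and the 5 fewest, the 10 highest folds, shared loci, and the 5 KRAB-ZFPs with most peaks or the highest shares. Peak windows in a UTR are not shown as sequence.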

Additional observations from a re-analysis of the deposited data

How the results depend on the processing

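Of 73 alternatives, 55 stayed within 1.5 times the reported count, or within the interval of a reported share, and 18 did not. With a p under 1e-10 and a fold over 20 in all samples, the peaks at the 37 genes went from 151 to 91, the median per gene from 4 to 2, the KRAB-ZFPs with a peak from 37 to 22, the shared loci from 11 to 7 and the genes with an ES cell peak from 13 to 7. A false discovery rate of at most 5% also left 7 genes with an ES cell peak. With a flank of 10 kb there were 66 peaks, a median of 1, a multi-copy share of 7.58%, 4 shared loci and 7 genes with an ES cell peak. With 100 kb there were 249 peaks, a median of 8, a multi-copy share of 22.9%, 20 shared loci and 21 such genes. The share of the 37 genes with an ES cell peak was 18.9% with the stricter peaks, against 12.4% of all protein-coding genes. It was 18.9% against 14.8% with 10 kb and 56.8% against 51.0% with 100 kb. The median per gene equalled that of all protein-coding genes with the stricter peaks (2) and with 10 kb (1). It was 3 for both at a false discovery rate of at most 5%, without Gm13152 and without the ES samples. It stayed above that of all genes with 100 kb (8 against 6), with 50 kb around the 5' end (3 against 2) and without Gm13225 (4 against 3). Genes with a start peak were 4 within 0.5 kb and 11 within 2 kb, against 7 within 1 kb. The difference from all genes changed sign for start peaks, from -1.43 percentage points to 2.60 without Gm13152 and 4.89 at 2 kb. It changed sign for gene bodies, from 1.95 to -3.37 at a false discovery rate of at most 5% and -3.60 without the ES samples, and for ES cell peaks, from 1.26 to -1.56 at that rate. The cause was not tested. The multi-copy share stayed below that in the windows of all protein-coding genes under each alternative run. Some of these alternatives (without the ES samples, Gm14406 or Gm13225) were chosen after seeing the data. No paired analysis was possible because each KRAB-ZFP has 1 sample and no value comes from a test. Library depth is unknown, and thresholds differed between samples.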

Other observations

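Among the 51 further network genes, Fgfr2, the receptor gene for FGF ligands, had the most peaks, 60, of which 59 lay in its body. The annotated body was 3009069 bp long, so this count reflects a far longer window than that of any of the 37 genes. Within 1 kb of any of its annotated transcript starts lay 4 peaks, 2 of Gm13152 (folds 29.08 and 28.01) and 1 each of Gm14412 (20.12) and Gm13225 (15.96). In a body this long, they need not lie at the same start. Spry4, an inhibitor of FGF signalling, had 5 start peaks of 5 KRAB-ZFPs, those of Gm13152 (371 tags, fold 70.38), Gm13157 (32.14), Zfp273 (31.97, false discovery rate 16%), Zfp456 (14.89, 14.29%) and Zfp493 (14.05). No gene of the 37 had more than 2 start peaks.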
